A study of Arabidopsis thaliana with 17 samples.

Results

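The genes described here are 10 stress-responsive members of the WRKY transcription factor family of Arabidopsis thaliana, WRKY8, WRKY18, WRKY25, WRKY28, WRKY33, WRKY40, WRKY46, WRKY54, WRKY70 and WRKY75. They were taken from the deposited gene tables by their locus identifiers, 10 of 27655 genes, and all 10 were found and passed the filter on low counts, as did 21282 genes in all. Poly(A) RNA of hydroponically grown seedlings was sequenced in 17 libraries from plants with the labelled age of 14 days. Wild-type plants were of the accession Col-0. The mutant line, atdgcr14l-1, carries 1 mutant allele of AtDGCR14L, and OE-6 is a single transgenic line that expresses 35S:AtDGCR14L in that same mutant background, the 35S promoter being constitutive. Plants were taken before salt (0 h) or after 24 h in 200 mM NaCl. Col-0 at 0 h has 2 libraries and each of the other 5 groups has 3. Nothing in the labels ties the libraries to separate plants or cultures. The p-values therefore measure the spread between these samples, which may be technical. No untreated group at 24 h was analysed here, and the passage of 24 h cannot be told apart from the salt.

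WRKY proteins are plant transcription factors named after a conserved amino acid motif in their DNA-binding domain, and they bind the W-box, a short DNA element with the core TTGAC. Many are induced within minutes to hours by pathogens, wounding, salt or drought, act downstream of MAP kinase cascades, and bind W-boxes in the promoters of other WRKY genes and of their own. WRKY33 and WRKY25 belong to group I of the family, WRKY18 and WRKY40 to group IIa, WRKY8, WRKY28 and WRKY75 to group IIc, and WRKY46, WRKY54 and WRKY70 to group III. Some members promote defence or stress tolerance and others restrain it, and several do either depending on the stress.

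The libraries held 53058673 to 56464259 estimated counts each. AtDGCR14L (AT3G07790) stood at 57.8 ± 2.96 CPM in Col-0 (SD, n = 2), 7.85 ± 0.953 in atdgcr14l-1 (n = 3) and 47.5 ± 3.77 in OE-6 (n = 3) at 0 h, with no overlap between the mutant and either other line. Among replicates, 2 libraries at 24 h stood furthest from the rest of their group, replicate 3 of atdgcr14l-1 and, by a small margin over replicate 1, replicate 2 of OE-6 (mean chi-square per gene to the other libraries of the group of 129 and 126, against 119 for OE-6 replicate 1), and results on the lines at 24 h are given with and without them. The tissue label is seedling. Leaf markers were abundant, with a summed level of 19206.5 to 24610.4 CPM at 0 h and 10119.9 to 15409.8 CPM at 24 h over 4 genes, whereas 6 root markers together reached at most 0.835 CPM in any library, and 2 or 3 of them were at 0 throughout a group. Seed markers lay at or near 0, guard cell markers summed to 60.8 to 98.1 CPM, and flower markers summed to up to 19.2 CPM in OE-6 at 0 h and 30.3 CPM at 24 h against at most 5.39 CPM in the other lines. As these are bulk samples, fewer cells of a type and less RNA per cell cannot be told apart.

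All 10 genes are nuclear, and their positions are those of RefSeq's annotation of TAIR10.1, matched by locus. WRKY33 (AT2G38470, chr2:16108235-16110766, plus strand, 5 exons) and WRKY25 (AT2G30250, chr2:12903208-12905338, minus strand, 5 exons) lie on chromosome 2, as do WRKY46 (AT2G46400, chr2:19043411-19044955, minus strand) and WRKY54 (AT2G40750, chr2:17000419-17002528, minus strand). WRKY18 (AT4G31800, chr4:15382777-15385100) and WRKY28 (AT4G18170, chr4:10061214-10062893) lie on the plus strand of chromosome 4, and WRKY8 (AT5G46350, chr5:18801164-18804056) and WRKY75 (AT5G13080, chr5:4149738-4151201) on the minus strand of chromosome 5. WRKY40 is AT1G80840 (chr1:30383561-30385499, plus strand) and WRKY70 is AT3G56400 (chr3:20908711-20910623, minus strand). WRKY33 shares 26 bases with AT2G38480, and WRKY40 shares 51 bases with AT1G80850, both on the other strand. AT2G08965, a lncRNA gene on the minus strand (chr2:16108698-16108969), lies wholly within WRKY33, where 23 of its 272 bases fall on exons of WRKY33, and it is not among the genes of the files. The strand used in counting is not given in the sources used here, so that reads in these shared bases cannot be assigned, and AT2G38480 stayed between 5.99 and 9.14 CPM and AT1G80850 between 6.21 and 15.3 CPM in all 17 libraries.

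Since most of these genes rose together, the 250 bases before each annotated start were searched for the W-box written as TTGACC or TTGACT, on both strands. The W-box in these forms was present in 4 of the 10 members and in 28.41% of the windows of 27444 nuclear genes. WRKY33 held 2 copies, one starting 96 and one 32 bases before the start and both on the strand opposite to the gene, WRKY25 held 1 copy starting 8 bases before it on the opposite strand, and WRKY28 and WRKY75 held 1 each on their own strand, starting 209 and 11 bases before it. These 4 windows are shown because they hold a form of the W-box that was searched for. They read 5′ to 3′ along the strand of the gene, with the W-box in capitals, which appears as GGTCAA or AGTCAA where it lies on the opposite strand, and they cover chr2:16107985-16108234 for WRKY33, chr2:12905339-12905588 for WRKY25, chr4:10060964-10061213 for WRKY28 and chr5:4151202-4151451 for WRKY75 in RefSeq's TAIR10.1.
WRKY33: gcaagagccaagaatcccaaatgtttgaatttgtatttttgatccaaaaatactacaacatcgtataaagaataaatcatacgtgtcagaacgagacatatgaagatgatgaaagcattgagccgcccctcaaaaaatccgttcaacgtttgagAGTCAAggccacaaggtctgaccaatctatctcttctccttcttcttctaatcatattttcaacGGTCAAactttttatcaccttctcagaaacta
WRKY25: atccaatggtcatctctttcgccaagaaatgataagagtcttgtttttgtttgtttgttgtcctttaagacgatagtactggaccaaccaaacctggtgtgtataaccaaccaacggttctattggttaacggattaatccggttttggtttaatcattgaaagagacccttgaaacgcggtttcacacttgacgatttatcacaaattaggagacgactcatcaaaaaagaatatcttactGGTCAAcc
WRKY28: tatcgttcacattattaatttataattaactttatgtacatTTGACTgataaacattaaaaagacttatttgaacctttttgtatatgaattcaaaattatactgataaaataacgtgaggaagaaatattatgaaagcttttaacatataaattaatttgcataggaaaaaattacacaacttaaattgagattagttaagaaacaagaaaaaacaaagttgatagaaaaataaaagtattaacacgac
WRKY75: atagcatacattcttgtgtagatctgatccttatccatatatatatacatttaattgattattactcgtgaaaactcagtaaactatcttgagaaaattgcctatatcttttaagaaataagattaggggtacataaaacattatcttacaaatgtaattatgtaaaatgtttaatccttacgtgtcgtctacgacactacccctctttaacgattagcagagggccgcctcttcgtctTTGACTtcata
The other 6 members held no such match in their windows, and the G-box, CACGTG, matched none of the 10 windows against 6.486% of all. The core TTGAC on its own was not counted. It also occurs, on either strand, in the windows of WRKY8, WRKY40, WRKY46 and WRKY70, and outside the capitals in that of WRKY25. WRKY54 and WRKY70, which did not pass the test for salt below, are among the 6 without a match, as are WRKY8, WRKY18, WRKY40 and WRKY46, which did.

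With 24 h of salt, 8 of the 10 genes rose in each of the 3 lines, WRKY8, WRKY18, WRKY25, WRKY28, WRKY33, WRKY40, WRKY46 and WRKY75. A gene was called at an adjusted p under 0.05 in edgeR's quasi-likelihood test, and of all 21282 genes tested 25.4% were called higher in Col-0, 31.3% in atdgcr14l-1 and 29.5% in OE-6. The median log2 fold change of the 10 genes was 2.86 in Col-0, 3.64 in atdgcr14l-1 and 3.25 in OE-6, beside medians over all genes of 0.027, 0.029 and 0.032. All 8 were called in each line under every alternative that tested them, 25 for each gene and 24 for WRKY75. All libraries at 24 h lay above all at 0 h for 9 members in Col-0, 8 in atdgcr14l-1 and 8 in OE-6, against 37.6%, 34.8% and 31.3% of all genes. Over the same 24 h, 3 of the 4 leaf markers were called lower in Col-0, 2 in atdgcr14l-1 and 4 in OE-6, and the part of this shift in the levels of the WRKY genes was not tested.

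**Figure D1:**
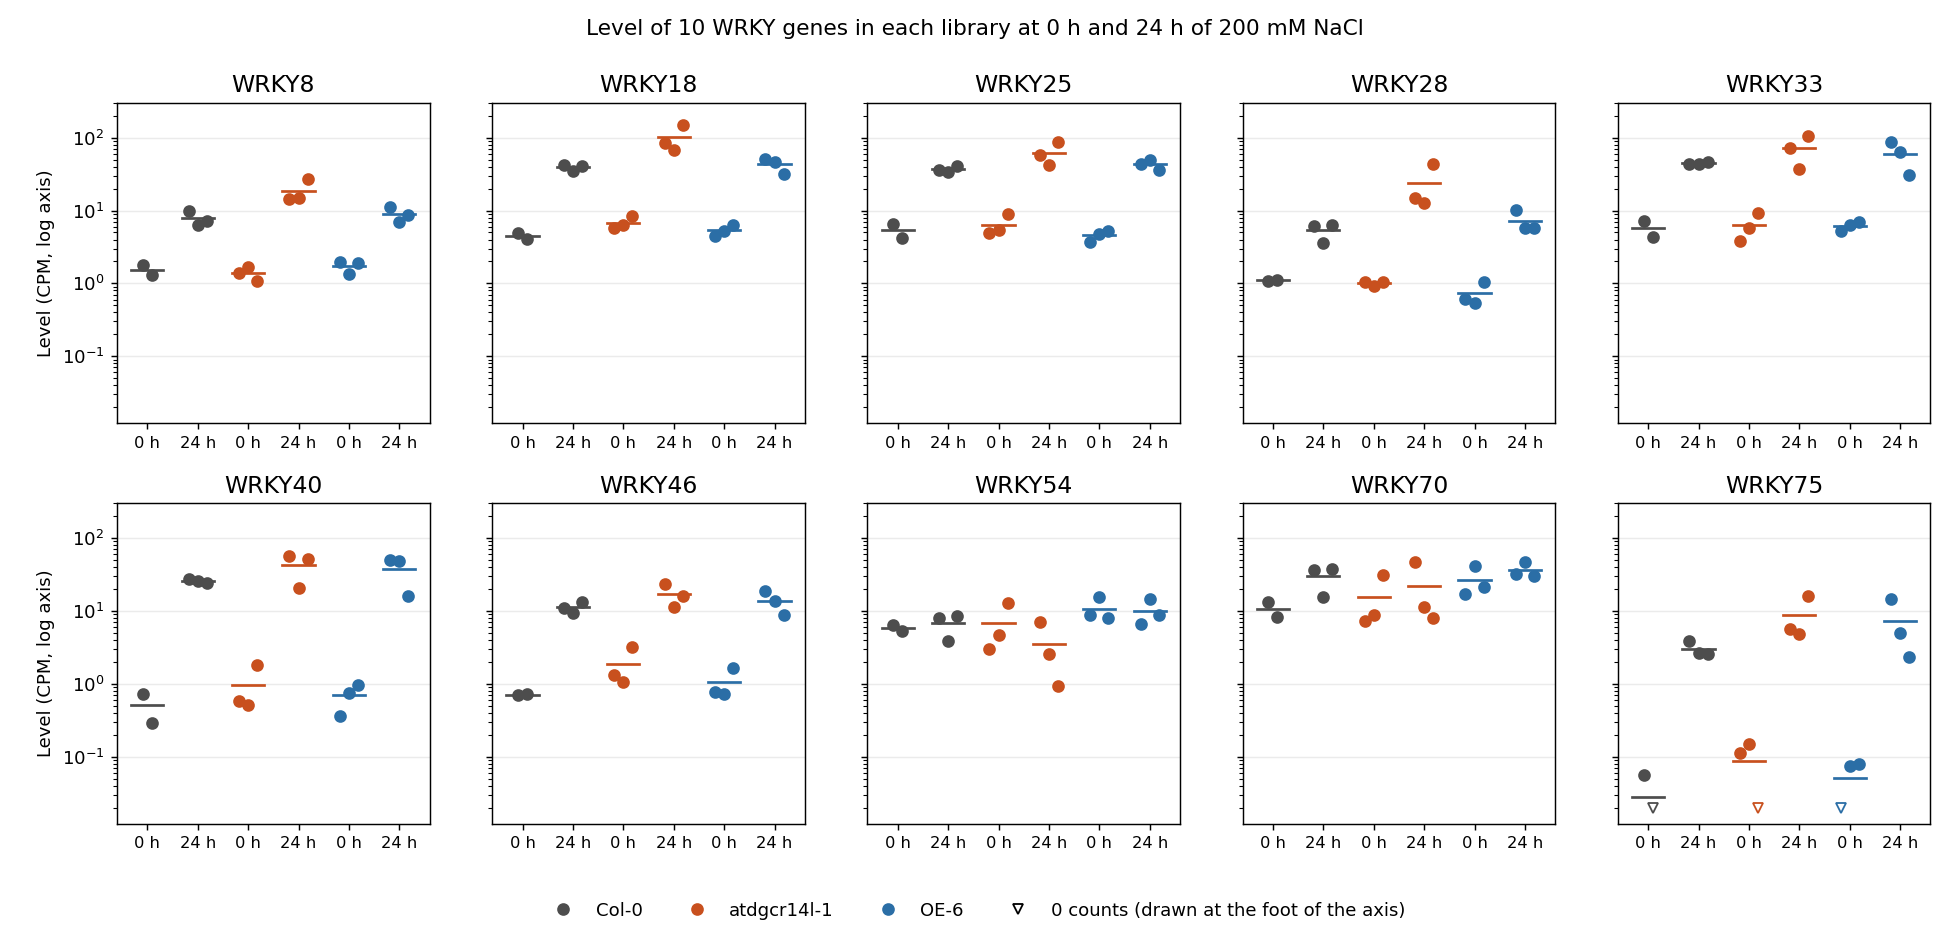
Level of each of the 10 WRKY genes in every library as CPM on a log axis, before and after 24 h of salt (200 mM NaCl), a short line marking the group mean (n = 2 for Col-0 at 0 h, n = 3 elsewhere) and open triangles for libraries with 0 counts. In 8 of the panels all libraries at 24 h lie above all at 0 h within each line, whereas in WRKY54 the times overlap in each line and in WRKY70 they overlap in atdgcr14l-1 and OE-6.

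WRKY18 and WRKY40 form, with WRKY60, the group IIa of Arabidopsis, whose proteins pair with each other, restrain several defence responses and bind promoters of abscisic acid signalling genes. WRKY18 stood at 4.89 and 4.08 CPM in the Col-0 libraries at 0 h and at 42.4, 34.4 and 41.0 CPM at 24 h. The atdgcr14l-1 libraries held 5.70, 6.37 and 8.40 CPM at 0 h and 85.8, 66.9 and 152 CPM at 24 h, and those of OE-6 went from 4.45, 5.32 and 6.35 CPM to 50.8, 45.9 and 32.2 CPM. The mutant libraries at 24 h were the 3 highest of the 17. The salt change was 3.13 ± 0.34 on the log2 scale in Col-0 (SE), 3.89 ± 0.29 in atdgcr14l-1 and 3.00 ± 0.28 in OE-6, with adjusted p of 7.1e-06, 1.2e-07 and 1.2e-06 (edgeR).

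WRKY40 had the second largest salt change of the 10 genes in each line, after WRKY75. Its levels at 0 h were 0.722 and 0.291 CPM in Col-0, 0.576, 0.515 and 1.82 CPM in atdgcr14l-1, and 0.360, 0.757 and 0.967 CPM in OE-6. At 24 h they were 27.9, 26.1 and 24.2 CPM in Col-0, 56.6, 20.5 and 51.6 CPM in atdgcr14l-1, and 50.2, 48.2 and 16.0 CPM in OE-6. Col-0 was tight at 24 h, while in each of the other lines 1 library lay below the Col-0 libraries and the other 2 above them. The change was 5.67 ± 0.79 (log2, SE) in Col-0, 5.46 ± 0.63 in atdgcr14l-1 and 5.78 ± 0.65 in OE-6, values that lie within 1 SE of each other. It moved to 6.47 in Col-0 without the first 0 h library of that line and to 6.29 in atdgcr14l-1 without 0 h replicate 3, the highest library at 0 h.

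WRKY33 and WRKY25 are targets of the MAP kinase pathway, WRKY33 being required for camalexin synthesis and resistance to necrotrophic fungi, and mutants of the pair are known to be more sensitive to NaCl. WRKY33 stood at 7.29 and 4.35 CPM in Col-0, 3.87, 5.85 and 9.16 CPM in atdgcr14l-1, and 5.25, 6.35 and 6.98 CPM in OE-6 at 0 h. At 24 h it stood at 44.2, 44.2 and 45.8 CPM in Col-0, 72.5, 37.6 and 104 CPM in atdgcr14l-1, and 86.3, 62.7 and 31.2 CPM in OE-6. As for WRKY40, the mutant and OE-6 libraries straddled the narrow range of Col-0 at 24 h. WRKY33 rose by 2.94 ± 0.51 (log2, SE) in Col-0, 3.50 ± 0.44 in atdgcr14l-1 and 3.28 ± 0.44 in OE-6. WRKY25 was at 4.21 to 6.53 CPM in Col-0, 4.91 to 8.84 CPM in atdgcr14l-1 and 3.75 to 5.25 CPM in OE-6 at 0 h, and at 33.5 to 41.1, 41.6 to 87.2 and 36.5 to 49.0 CPM at 24 h. It rose by 2.78 ± 0.33, 3.29 ± 0.29 and 3.23 ± 0.29 on the log2 scale, close to WRKY33 in each line.

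Group IIc held the gene with the largest fold change of the 10. WRKY75, a promoter of leaf senescence that is also known from phosphate starvation, was almost absent at 0 h, with 3 and 0 counts in the Col-0 libraries, 6, 8 and 0 counts in atdgcr14l-1 and 0, 4 and 4 counts in OE-6. At 24 h it reached 3.87, 2.61 and 2.54 CPM in Col-0, 5.68, 4.88 and 16.1 CPM in atdgcr14l-1, and 14.8, 5.02 and 2.34 CPM in OE-6. The libraries at 24 h were uneven, replicate 3 of atdgcr14l-1 and replicate 1 of OE-6 standing well above the others of their groups. The ratio of summed counts, corrected for library size, was 106 in Col-0 with a 95% counting interval of 35.9 to 514, 102 in atdgcr14l-1 with an interval of 60.8 to 188, and 149 in OE-6 with one of 75.5 to 346. These intervals cover counting error only. Without the Col-0 library that held the 3 counts, the remaining library at 0 h was at 0 and WRKY75 was at least 51.7-fold higher at 24 h, against a floor of 3 counts in that library. The fitted change of WRKY75 was 5.70 on the log2 scale in Col-0 without 0 h replicate 2. It was 5.90 in atdgcr14l-1 without 24 h replicate 3 or 7.26 without 0 h replicate 2, and 6.11 in OE-6 without 24 h replicate 1, beside 6.62, 6.65 and 7.12 with all libraries.

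WRKY8, which takes part in salt tolerance and whose DNA binding is held back by the VQ protein VQ9, stood at 1.78 and 1.30 CPM in Col-0, 1.38, 1.67 and 1.08 CPM in atdgcr14l-1, and 1.95, 1.33 and 1.89 CPM in OE-6 at 0 h. At 24 h it was at 9.86, 6.41 and 7.23 CPM in Col-0, 14.4, 14.6 and 27.3 CPM in atdgcr14l-1, and 11.3, 7.0 and 8.70 CPM in OE-6. The 3 mutant libraries lay above all others at 24 h, and the lines overlapped at 0 h. WRKY28, an activator of the salicylate synthesis gene ICS1, stood at 1.09 and 1.11 CPM in Col-0, 1.04, 0.920 and 1.06 CPM in atdgcr14l-1, and 0.606, 0.535 and 1.05 CPM in OE-6 at 0 h. At 24 h its levels were 6.19, 3.63 and 6.43 CPM in Col-0, 14.7, 12.9 and 43.0 CPM in atdgcr14l-1, and 10.1, 5.72 and 5.77 CPM in OE-6. Again the mutant libraries were the highest, and replicate 3 stood far above the other 2. WRKY8 rose by 2.35 ± 0.34 (log2, SE) in Col-0, 3.77 ± 0.31 in atdgcr14l-1 and 2.38 ± 0.29 in OE-6, and WRKY28 by 2.30 ± 0.52, 4.54 ± 0.48 and 3.31 ± 0.47. The change of WRKY28 in atdgcr14l-1 was 3.77 without 24 h replicate 3.

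The group III genes were split. WRKY46, an early gene of salicylate and osmotic stress responses, rose like the preceding genes, from 0.703 and 0.718 CPM to 11, 9.30 and 13.4 CPM in Col-0, from 1.32, 1.05 and 3.18 CPM to 23.4, 11.3 and 15.8 CPM in atdgcr14l-1, and from 0.777, 0.720 and 1.64 CPM to 18.9, 13.9 and 8.68 CPM in OE-6. No library at 24 h was as low as any at 0 h. The changes were 3.98 ± 0.57, 3.18 ± 0.45 and 3.73 ± 0.47 (log2, SE), and that in atdgcr14l-1 was 3.83 without 0 h replicate 3, its highest library at 0 h.

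WRKY54 and WRKY70 act together as modulators of salicylate signalling that restrain leaf senescence and osmotic stress responses. WRKY54 stood at 6.44 and 5.22 CPM in Col-0, 2.99, 4.73 and 12.7 CPM in atdgcr14l-1, and 8.68, 15.8 and 7.93 CPM in OE-6 at 0 h. At 24 h it stood at 8.03, 3.89 and 8.65 CPM in Col-0, 7.03, 2.53 and 0.918 CPM in atdgcr14l-1, and 6.67, 14.6 and 8.84 CPM in OE-6. Times overlapped in every line. The salt change was 0.23 ± 0.73 (log2, SE) in Col-0, -0.96 ± 0.66 in atdgcr14l-1 and -0.11 ± 0.64 in OE-6, with adjusted p of 0.818, 0.229 and 0.904 (edgeR). Without atdgcr14l-1 24 h replicate 1, the highest of its group, the change in atdgcr14l-1 was -1.98 and passed the test (adjusted p = 0.023, edgeR), where its adjusted p ran up to 0.872 over the alternatives.

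WRKY70 stood at 13.2 and 8.31 CPM in Col-0, 7.34, 8.67 and 31.0 CPM in atdgcr14l-1, and 17.2, 41.1 and 21.6 CPM in OE-6 at 0 h. At 24 h it stood at 36.6, 15.6 and 38.2 CPM in Col-0, 46.7, 11.3 and 8.03 CPM in atdgcr14l-1, and 32.2, 47.0 and 30.3 CPM in OE-6. In Col-0 the 24 h libraries lay above those at 0 h, and in the other lines the times overlapped. The change was 1.49 ± 0.81 (log2, SE) in Col-0, 0.49 ± 0.69 in atdgcr14l-1 and 0.45 ± 0.68 in OE-6, and none passed the test (adjusted p of 0.152, 0.570 and 0.597, edgeR). In atdgcr14l-1 it stood at -0.70 without 24 h replicate 1 and at 1.46 without 0 h replicate 3.

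**Figure D2:**
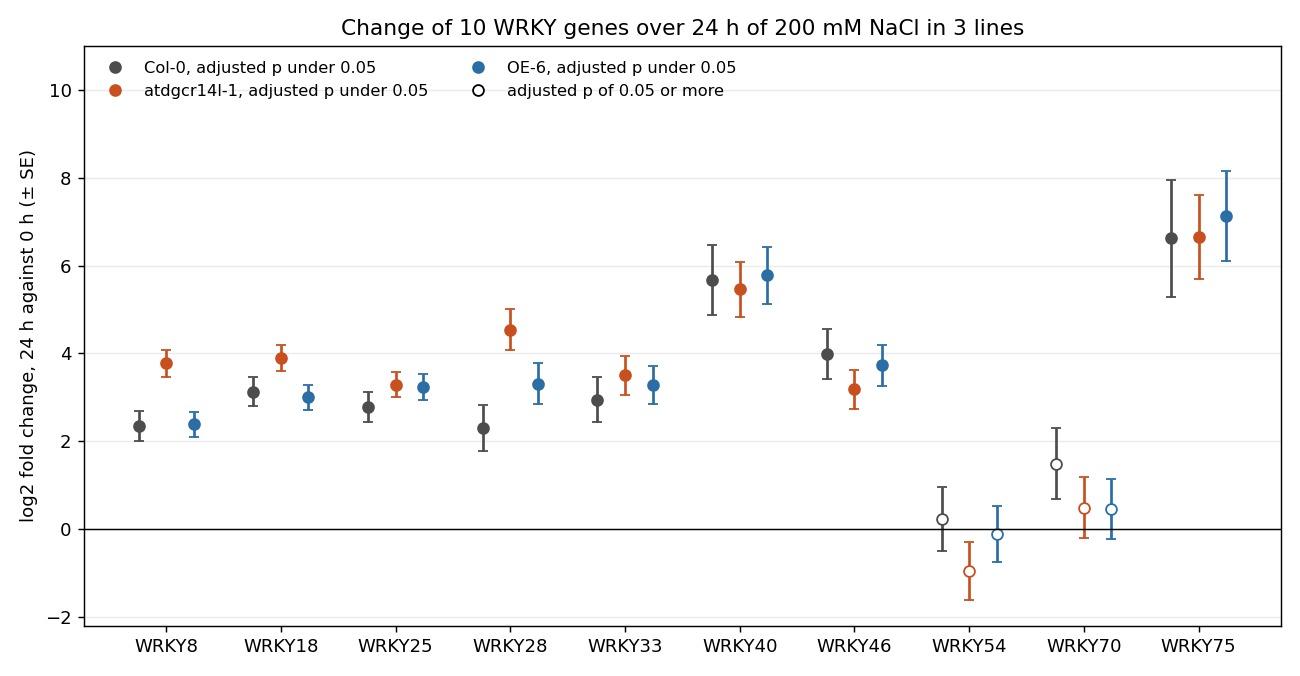
Change of each WRKY gene from 0 h to 24 h of salt as a log2 fold change with its SE in Col-0, atdgcr14l-1 and OE-6, filled where the adjusted p is under 0.05. WRKY75 and WRKY40 show the largest changes in each line, and WRKY54 and WRKY70 are the unfilled points. WRKY8, WRKY18, WRKY25, WRKY28 and WRKY33 lie highest in atdgcr14l-1, WRKY25 and WRKY33 by less than 1 SE over OE-6.

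Set per kilobase of the longest annotated transcript, the order of the genes differed between the times. At 0 h in Col-0 WRKY70 led at 7.31 ± 2.35 CPM per kb (SD, n = 2), followed by WRKY54 at 4.07 ± 0.60, and WRKY25, WRKY33 and WRKY18 at 3.02, 2.87 and 2.58. The libraries of WRKY70 did not overlap with those of WRKY54, whereas WRKY54, WRKY25, WRKY33 and WRKY18 each overlapped with the next. WRKY8, WRKY28, WRKY46, WRKY40 and WRKY75 followed at 1.12, 0.756, 0.525, 0.382 and 0.034 CPM per kb, and of these only WRKY46 and WRKY40 overlapped with each other. At 24 h in Col-0 WRKY18, WRKY33, WRKY25, WRKY70 and WRKY40 lay between 19.7 and 22.6 CPM per kb, each overlapping with the next, above WRKY46 at 8.29 ± 1.51, WRKY8 at 5.70, WRKY54 at 4.79, WRKY28 at 3.73 and WRKY75 at 3.71. In atdgcr14l-1 at 24 h WRKY18 led at 58.3 ± 25.6 CPM per kb (SD, n = 3) and WRKY54 was last at 2.44 ± 2.21, and WRKY75 and WRKY54 were the only neighbours that did not overlap. In OE-6 at 24 h WRKY33, WRKY40, WRKY70, WRKY18 and WRKY25 lay between 24.3 and 29.6 CPM per kb and WRKY28 was last at 4.96 ± 1.75.

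At 24 h, 3 of the 10 genes were higher in atdgcr14l-1 than in Col-0, WRKY18, WRKY28 and WRKY8, where 7.71% of all genes tested were called higher. WRKY18 was higher by 1.37 ± 0.26 on the log2 scale (SE), a fold of 2.58, WRKY28 by 2.12 ± 0.42, a fold of 4.34, and WRKY8 by 1.26 ± 0.27, a fold of 2.4, with adjusted p of 0.0054, 0.0064 and 0.0092 (edgeR). In each case all 3 mutant libraries lay above all 3 of Col-0. The same separation held for WRKY25 and WRKY75, so that 5 of 10 members were without overlap where 16.1% of all genes were, but neither passed the test (0.76 ± 0.26, adjusted p = 0.070, and 1.56 ± 0.68, adjusted p = 0.143, edgeR). The other 5 genes overlapped, with changes of 0.58 to 0.72 for WRKY33, WRKY40 and WRKY46 and of -0.97 and -0.45 for WRKY54 and WRKY70. Single libraries moved values that did not pass, WRKY75 to 0.81 without atdgcr14l-1 24 h replicate 3, and WRKY54 to -1.99 and WRKY70 to -1.64 without atdgcr14l-1 24 h replicate 1.

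In OE-6 at 24 h these same 3 genes were lower than in atdgcr14l-1, where 6.79% of all genes tested were called lower. WRKY18 differed by -1.24 ± 0.26 (log2, SE; adjusted p = 0.0099, edgeR), WRKY28 by -1.70 ± 0.41 (0.018) and WRKY8 by -1.06 ± 0.27 (0.022), and all OE-6 libraries lay below all mutant libraries, as for 12.0% of all genes. Both comparisons use the same mutant libraries, so the second is not independent of the first. Against Col-0 at 24 h, OE-6 differed by 0.13 ± 0.26 in WRKY18, 0.41 ± 0.41 in WRKY28 and 0.20 ± 0.27 in WRKY8, and the libraries of these lines overlapped.

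Of the tissue markers, 1 of 4 leaf genes, LHCB1.1, was called higher in atdgcr14l-1 than in Col-0 at 24 h (1.22 ± 0.26, log2, SE; adjusted p = 0.0090, edgeR), as was 1 of 3 guard cell genes, KAT1 (0.64 ± 0.17; 0.028). The leaf sums were 11983 to 13616.4 CPM in Col-0 and 12703.6 to 15409.8 CPM in atdgcr14l-1, the guard cell sums were 60.8 to 73.7 and 64.6 to 91.4 CPM, and no gene of either list was at 0. Between OE-6 and atdgcr14l-1 at 24 h, 0 genes of these lists were called by edgeR with all libraries. Of the leaf genes, 1 was called lower in OE-6 with DESeq2 and without atdgcr14l-1 24 h replicate 2 or replicate 3. It was also 1 without both libraries that stood furthest from their groups. Guard cell calls ranged over the alternatives from 0 to 2 higher and from 0 to 1 lower in OE-6. Of 2 root genes tested, 1 was called lower in OE-6, PRP3, at 0 CPM against a mean of 0.048 CPM in atdgcr14l-1 (adjusted p = 0.049, edgeR). This call near the floor was lost in the replicate block, in the fit of the groups compared and without any single OE-6 library at 24 h. DESeq2 tested 0 genes of the list. The 6 root genes summed to at most 0.232 CPM in OE-6 and 0.449 CPM in atdgcr14l-1. No flower gene was called, but all 3 were higher in OE-6 at an unadjusted p under 0.05 (edgeR), beside 29.9% of all genes. Their median log2 fold change was 2.64, and their sums were uneven, 0.963 to 30.3 CPM in OE-6 and 1.84 to 2.43 CPM in atdgcr14l-1. The part of these markers in the line differences was not tested.

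The line differences did not hold under all alternatives. In a fit of only the 2 groups compared, none of the 3 genes passed in either comparison, with adjusted p of 0.052 for WRKY18, 0.062 for WRKY8 and 0.088 for WRKY28 against Col-0 and of 0.244, 0.250 and 0.271 for OE-6 against atdgcr14l-1 (edgeR), where that fit called 7 of 20384 genes in all. Without both libraries that stood apart, the 3 differences from Col-0 were 0.96, 1.35 and 0.89 for WRKY18, WRKY28 and WRKY8 and still passed, while of those from OE-6 only WRKY18 did (-0.88, adjusted p = 0.047, edgeR), WRKY28 being at -0.79 and WRKY8 at -0.54. Leaving out atdgcr14l-1 24 h replicate 3 alone moved WRKY28 to 1.35 against Col-0 and to -0.93 between OE-6 and atdgcr14l-1, and leaving out Col-0 24 h replicate 2 put WRKY8 at an adjusted p of 0.051 (edgeR). The calls of WRKY8 and WRKY28 between OE-6 and atdgcr14l-1 were also lost without any of atdgcr14l-1 24 h replicate 3, OE-6 24 h replicate 2 and OE-6 24 h replicate 3, in 5 of 25 alternatives each, and that of WRKY18 in 1. WRKY54 was higher in OE-6 than in atdgcr14l-1 only without atdgcr14l-1 24 h replicate 1 (2.54, adjusted p = 0.038, edgeR), against 1.52 ± 0.66 and 0.144 with it.

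**Figure D3:**
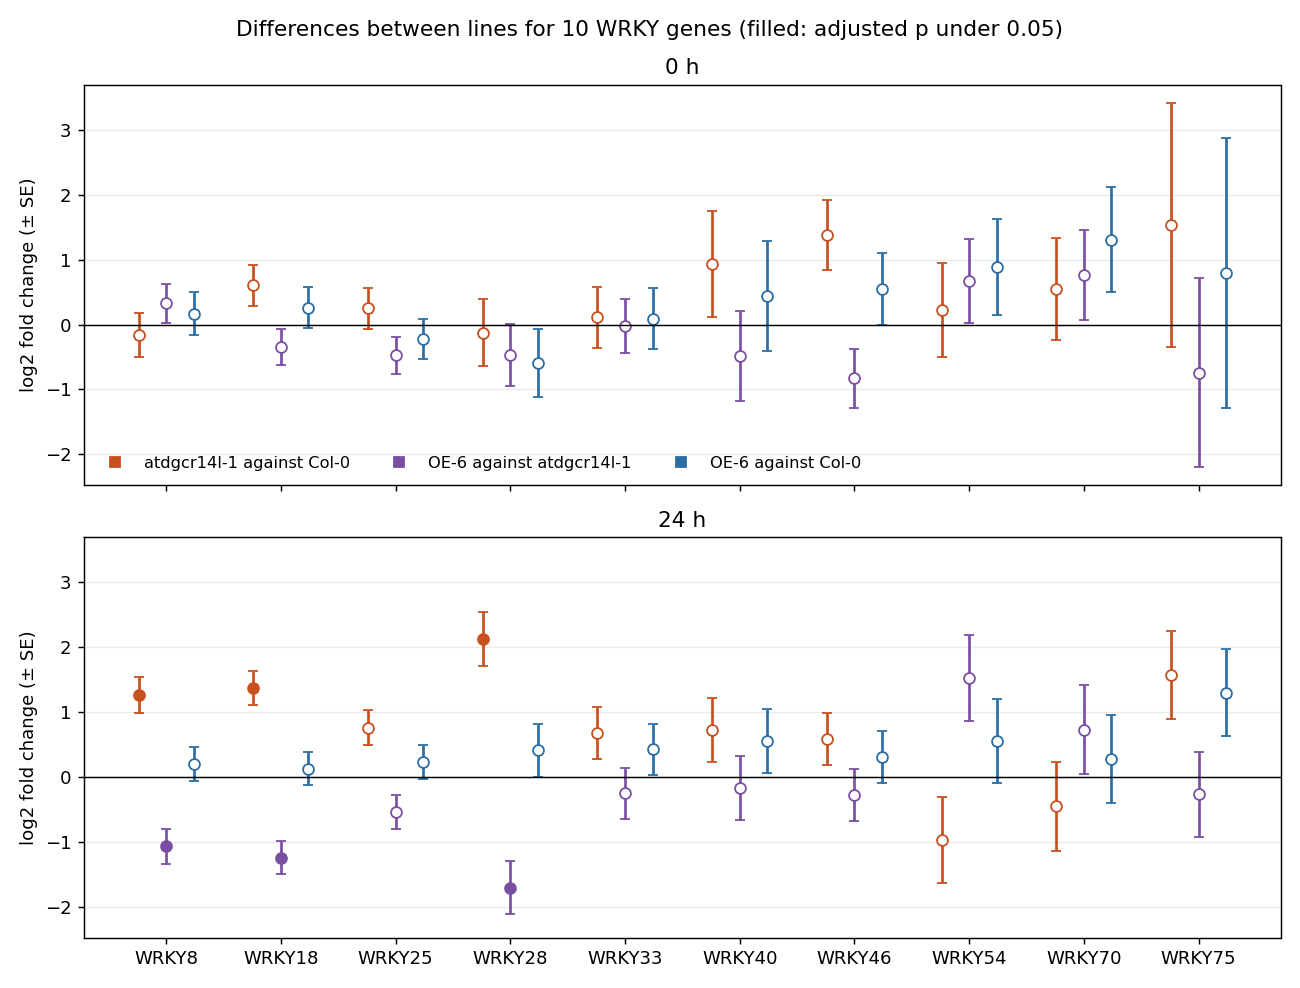
Differences between lines for each WRKY gene as log2 fold changes with SE, at 0 h in the upper panel and 24 h in the lower one, filled where the adjusted p is under 0.05. The filled points are WRKY8, WRKY18 and WRKY28 at 24 h, above 0 for atdgcr14l-1 against Col-0 and below 0 for OE-6 against atdgcr14l-1, while OE-6 against Col-0 has none.

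Before salt no member was called between any lines by edgeR or DESeq2, where edgeR called 2.03% of all genes for atdgcr14l-1 against Col-0, 4.57% for OE-6 against atdgcr14l-1 and 0.0141% for OE-6 against Col-0. DESeq2 called 583 genes higher and 320 lower, 661 and 951, and 18 and 6 in the same order. At an unadjusted p under 0.05 in edgeR, 1 member passed for atdgcr14l-1 against Col-0, 0 for OE-6 against atdgcr14l-1 and 0 for OE-6 against Col-0, beside 12.4%, 16.4% and 2.05% of all genes. That member was WRKY46, higher by 1.38 ± 0.54 (log2, SE), with an adjusted p of 0.289 (edgeR) and all mutant libraries above both of Col-0, as for 19.4% of all genes, and it stood at 0.73 without atdgcr14l-1 0 h replicate 3. WRKY18 was higher by 0.61 ± 0.31 at 0 h, again with all mutant libraries above Col-0, and passed only in the fit of the groups compared (0.62, adjusted p = 0.049, edgeR). OE-6 against Col-0 at 24 h gave 0 members called by either tool and 0 at an unadjusted p under 0.05, where 7.96% of all genes lay under that p. Of all genes, edgeR called 0.0047% and DESeq2 called 16 higher and 30 lower.

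Whether the salt change itself differed between lines was tested as an interaction of line and time, and 0 members were called by edgeR or DESeq2. Of 21282 genes edgeR called 1 higher for atdgcr14l-1 against Col-0, or 0.0047%, and 2 lower for OE-6 against atdgcr14l-1, or 0.0094%. DESeq2 called 92 higher and 29 lower in the first of these, 72 and 161 in the second, and 5 and 3 for OE-6 against Col-0. At an unadjusted p under 0.05 in edgeR lay 8.93%, 9.77% and 4.29% of all genes. The largest differences between atdgcr14l-1 and Col-0 were in WRKY28, 2.24 ± 0.65, and WRKY8, 1.42 ± 0.42 on the log2 scale (SE), with adjusted p of 0.386 and 0.391 (edgeR), the only 2 members at an unadjusted p under 0.05. Between OE-6 and atdgcr14l-1 they were in WRKY8, -1.39 ± 0.40, and WRKY28, -1.24 ± 0.63, and 2 members, WRKY8 and WRKY18 (-0.89 ± 0.38), had an unadjusted p under 0.05. Between OE-6 and Col-0 there were 0, with 0.0% of all genes called by edgeR. Without atdgcr14l-1 24 h replicate 3, WRKY28 stood at 1.47 for atdgcr14l-1 against Col-0 and at -0.46 for OE-6 against atdgcr14l-1. The line differences at 24 h are differences in level at that time. The test of a different response to salt was not passed, which does not show that the responses were alike.

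The 8 genes that rose had like profiles over the 17 libraries, all 28 of their pairs having a Pearson correlation of log2 CPM between 0.907 and 0.989, a range that includes the shift between times. Taken as deviations from the group means, the correlations of these pairs ran from -0.056 to 0.897 with a median of 0.578. The closest were WRKY18 with WRKY25 at 0.897, WRKY18 with WRKY33 at 0.891 and WRKY33 with WRKY40 at 0.882, whereas WRKY8 with WRKY46 was at -0.056 and WRKY8 with WRKY40 at 0.004. WRKY54 and WRKY70 deviated together more closely than any of these pairs, at 0.943 over 17 libraries, and were on opposite sides of WRKY8, at -0.613 and -0.461. In atdgcr14l-1 at 24 h, replicate 3 was the highest library for WRKY8, WRKY18, WRKY25, WRKY28, WRKY33 and WRKY75 and the lowest for WRKY54 and WRKY70. These values describe libraries that share groups and depth, and genes are not independent replicates.

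**Figure D4:**
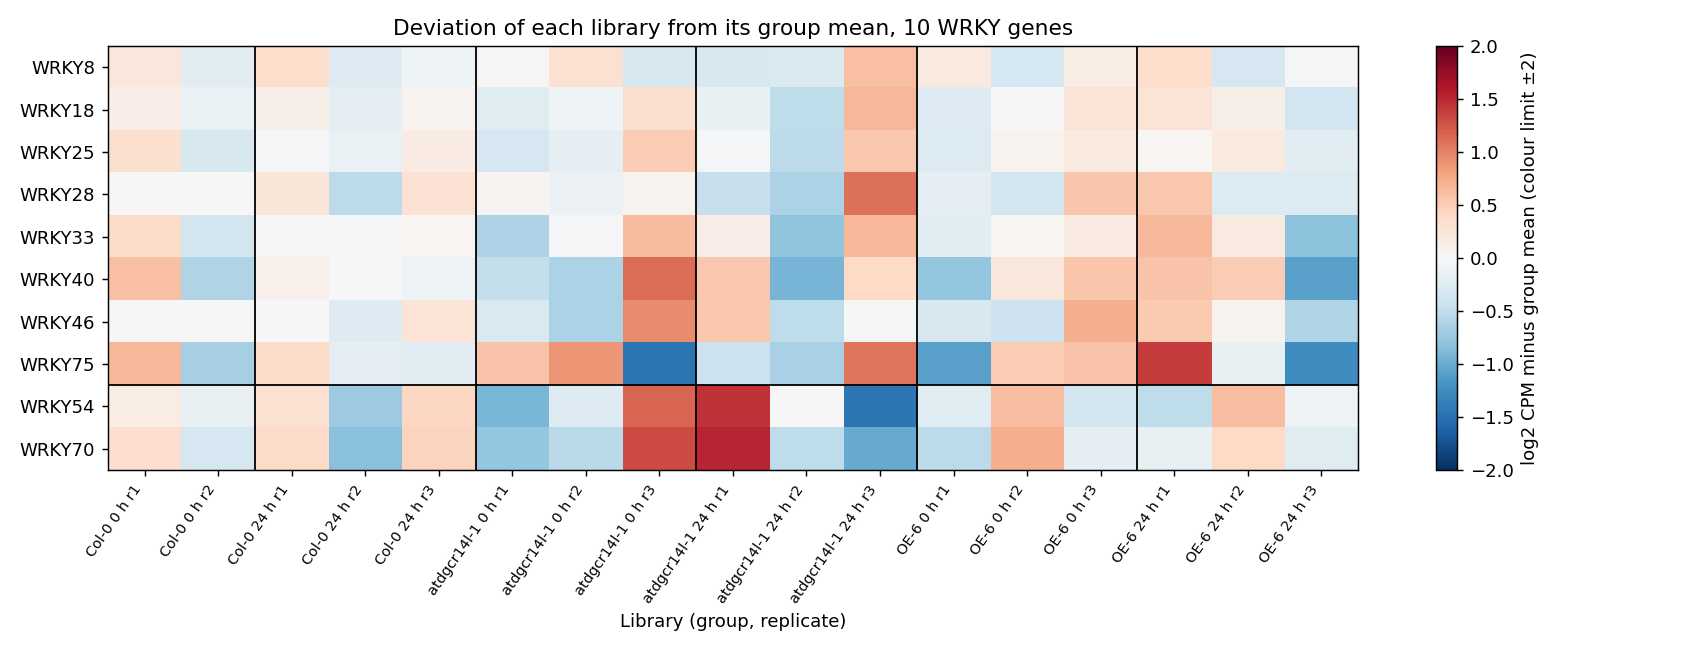
Deviation of each library from the mean of its group in log2 CPM, for the 8 genes called with salt above the line and WRKY54 and WRKY70 below it, with groups separated by vertical lines and colours limited at ±2. WRKY54 and WRKY70 show nearly the same row, and in atdgcr14l-1 24 h replicate 3 they are low while WRKY28 and WRKY75 are high.

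For each member the 2 genes most like it in log2 CPM over the 17 libraries were taken. For WRKY70 these were SIB1, a chloroplast and nuclear VQ protein known to interact with WRKY33, at 0.95, and LURP1, a gene of the late response to an oomycete, at 0.929. LURP1 shared the uneven libraries of WRKY70, with 46.3 CPM in atdgcr14l-1 0 h replicate 3 against 3.40 and 4.19 CPM in the other 2, and 37.8 CPM in atdgcr14l-1 24 h replicate 1 against 2.18 and 1.22 CPM. For WRKY54 they were RLP36 at 0.951 and AT3G22235 at 0.933. For WRKY25 the closest gene was another family member, WRKY48, at 0.992, and for WRKY8 they were MTHFR2 and NRT1.8, a nitrate transporter that unloads nitrate from xylem vessels, both at 0.989. The closest genes of WRKY28 were TBP1 and AT1G45688, both at 0.989, those of WRKY18 were AT5G55050 and ASG1 at 0.993 and 0.992, and those of WRKY33 were AT5G25930 and AT4G20830 at 0.993 and 0.992. WRKY40 was most like AT1G72900 and AT1G19020 at 0.992 and 0.991, WRKY46 most like AT1G09932 and AT2G20142 at 0.988 and 0.987, and WRKY75 most like AT5G57010 and the glutathione transferase gene GSTU11 at 0.985 and 0.981.

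The MAP kinases that act upstream of WRKY33 and WRKY25 rose with salt by small amounts beside the WRKY genes themselves. Of 9 genes of the cascade, 7 were called higher in Col-0, 9 in atdgcr14l-1 and 8 in OE-6, beside 25.4%, 31.3% and 29.5% of all genes. Their median log2 fold changes were 0.45, 0.70 and 0.61, and 0 were called lower. MKK4, a kinase of MPK3 and MPK6, had the smallest p in each line, changing by 1.41 ± 0.15, 1.54 ± 0.13 and 1.49 ± 0.13 (log2, SE). MKK5 came next by p, at 0.85 ± 0.13, 1.09 ± 0.11 and 0.83 ± 0.11. MKK1 rose by more than MKK5 in Col-0 and OE-6, by 1.15 ± 0.19 and 1.11 ± 0.17. No gene of the cascade was called between atdgcr14l-1 and Col-0 by edgeR at either time, with 0 at 0 h and 2 at 24 h at an unadjusted p under 0.05, beside 12.4% and 29.0% of all genes. At 24 h, 2 were called higher without atdgcr14l-1 24 h replicate 2 and 1 lower without its replicate 1.

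VQ proteins bind WRKY factors and raise or lower their activity. With salt, 25.4%, 31.3% and 29.5% of all genes were called higher in Col-0, atdgcr14l-1 and OE-6. Of 8 tested VQ genes of 9 listed, 4 were called higher in Col-0, 4 in atdgcr14l-1 and 5 in OE-6. The count was 2 in Col-0 without 0 h replicate 2 or without 24 h replicate 1, and 3 in OE-6 without 0 h replicate 2. Among the genes called was JAV1, a repressor of jasmonate defence, at 2.64 ± 0.37, 3.66 ± 0.33 and 2.87 ± 0.32 (log2, SE). VQ9, the partner of WRKY8, was called higher in each line by 0.50 to 0.79, in Col-0 with an adjusted p of 0.048 (edgeR) that 14 of 25 alternatives lost. SIB2, the paralogue of SIB1 and like it a partner of WRKY33, was the VQ gene called between lines at 24 h. It stood at 17.6, 15.2 and 14.4 CPM in Col-0, 9.80, 8.05 and 6.52 CPM in atdgcr14l-1, and 13.6, 20.8 and 16.7 CPM in OE-6 at 24 h. All mutant libraries were below those of both other lines, opposite in direction to WRKY18, WRKY28 and WRKY8. SIB2 differed from Col-0 by -0.96 ± 0.17 (log2, SE; adjusted p = 0.0030, edgeR) and was called in all 25 alternatives, and OE-6 differed from atdgcr14l-1 by 1.07 ± 0.17 (0.0020), lost only in the fit of the groups compared.

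Most genes reported elsewhere as targets of the members also rose. The lists do not separate targets that a member activates from those it represses, and a link to the members was not tested. Of 7 reported WRKY33 targets, 5 were called higher with salt in Col-0, 6 in atdgcr14l-1 and 6 in OE-6. Over all genes the shares called higher were 25.4%, 31.3% and 29.5%, which apply to each list below as well. The camalexin synthesis gene CYP71A13 went from means of 0.352, 0.087 and 0.082 CPM to 24.3, 33.3 and 32.6 CPM, and NCED3, which makes the precursor of abscisic acid, changed by 2.43 ± 0.25, 3.08 ± 0.22 and 2.26 ± 0.21 (log2, SE). Before salt NCED3 was higher in OE-6 than in atdgcr14l-1, at means of 7.10 and 2.99 CPM (1.25 ± 0.21, log2, SE; adjusted p = 0.0032, edgeR). The ethylene synthesis gene ACS2 was called higher in atdgcr14l-1 than in Col-0 at 24 h (2.31 ± 0.60, adjusted p = 0.027, edgeR), which 7 of 25 alternatives lost. Of 6 tested genes of 7 reported as WRKY18 and WRKY40 targets, 5, 6 and 6 rose with salt, among them MYB2, by 5.03, 6.89 and 6.50 on the log2 scale, and RAB18, an abscisic acid-responsive dehydrin, by 5.41, 5.31 and 5.25. The count fell from 5 to 3 in Col-0 without 0 h replicate 2, and from 6 to 3 in OE-6 without 0 h replicate 2 or in the fit of the groups compared. DREB1A, a regulator of cold and salt responses on that list, was lower in atdgcr14l-1 than in Col-0. The differences were -1.32 ± 0.28 at 0 h and -1.63 ± 0.25 at 24 h (adjusted p of 0.024 and 0.0014, edgeR). The call at 0 h was lost without any single library of either group. In OE-6 DREB1A was higher than in atdgcr14l-1, by 1.91 ± 0.26 at 0 h and 1.65 ± 0.25 at 24 h (adjusted p of 0.00064 and 0.0017, edgeR). This difference at 24 h was no longer called in the fit of the groups compared. MYB2 went the other way at 24 h, being higher in atdgcr14l-1 than in Col-0 (1.25 ± 0.34, adjusted p = 0.029, edgeR). That call was lost without any single Col-0 library at 24 h or without atdgcr14l-1 24 h replicate 3. It was also lost in the fit of the groups compared and with both deviating 24 h libraries left out. Under a filter at 5 CPM, 0 genes of the list were called higher there. Of 16 genes of salicylate synthesis and response, 8 rose and 1 fell in Col-0, 7 rose and 1 fell in atdgcr14l-1, and 10 rose and 1 fell in OE-6. Without replicate 1 or replicate 2 of Col-0 at 0 h, 5 rose there, and without atdgcr14l-1 24 h replicate 1, 2 fell in atdgcr14l-1. ICS1, the gene that WRKY28 activates, differed by 0.08 ± 0.40, -0.01 ± 0.35 and 0.36 ± 0.36 and was not called, while PR2 and CBP60G rose in each line.

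Across the rest of the family, 51 of the other 62 WRKY genes were tested. Of all genes, 25.4%, 31.3% and 29.5% were called higher with salt in Col-0, atdgcr14l-1 and OE-6. Among the other WRKY genes, 18 were called higher and 5 lower in Col-0, 21 and 6 in atdgcr14l-1, and 26 and 8 in OE-6. Of these, 17 were called higher in all 3 lines and 4 lower, WRKY7, WRKY17, WRKY23 and WRKY29. WRKY60, the third gene of group IIa, rose from means of 2.58, 2.60 and 1.97 CPM to 14.5, 20.2 and 12.3 CPM. WRKY53, a group III promoter of senescence, rose from means of 2.22, 2.51 and 1.49 CPM to 21.2, 24.9 and 23.7 CPM, unlike its group members WRKY54 and WRKY70. At 24 h, 3 of the other WRKY genes were called higher and 1 lower in atdgcr14l-1 than in Col-0, where 7.71% of all genes were called higher. Among them WRKY19 alone was called in all 25 alternatives. The 3 became 1 without OE-6 0 h replicate 1 or Col-0 24 h replicate 2, 6 without atdgcr14l-1 24 h replicate 2 and 5 without OE-6 24 h replicate 2, and the 1 lower became 0 to 2 over the libraries left out. WRKY19 stood at 22.2, 25.7 and 30.2 CPM in Col-0 and at 38.7, 52.3 and 46.3 CPM in atdgcr14l-1 at 24 h, a difference of 0.81 ± 0.15 (log2, SE; adjusted p = 0.0047, edgeR). Before salt it was lower in OE-6 than in atdgcr14l-1, at means of 18.4 and 31.4 CPM (-0.77 ± 0.16, log2, SE; adjusted p = 0.0094, edgeR). No other gene of the 51 was called in that comparison, where 4.57% of all genes were.

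**Figure D5:**
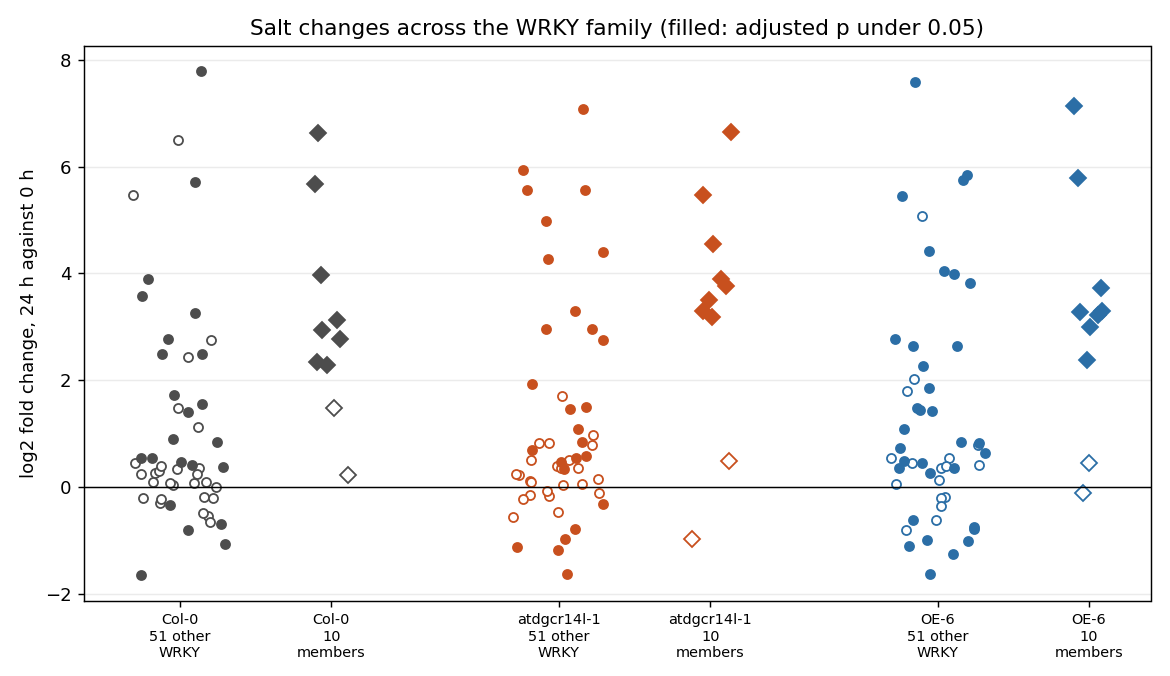
Log2 fold change from 0 h to 24 h of salt for the 51 other WRKY genes tested (circles) and the 10 members (diamonds) in each line, filled where the adjusted p is under 0.05, with points spread sideways for legibility. The 8 filled members of each line lie between 2.30 and 7.12, and the other genes between -1.65 and 7.78.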

How the data were processed

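Seedling poly(A) RNA was sequenced with a dUTP kit on a DNBSEQ instrument, per the labels' protocols. Per gene, the authors deposited estimated counts, also called expected counts, which were already whole numbers. The submitters' processing notes list StringTie 2.1.7, DESeq2 2.11.40.7 and Bowtie2 2.4.5, without roles. The genome build was not given in the sources used here, nor was the strand setting of counting. Gene identifiers carry Araport11. Groups come from the labels.

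Tests used edgeR 4.0.16 in R 4.3.3 on the counts. filterByExpr kept 21282 genes, TMM scaled the libraries, and a robust quasi-likelihood model was fitted to all 6 groups (common biological coefficient of variation 19.5%), with 12 contrasts and Benjamini-Hochberg adjustment over all genes. The scripts were tested on simulated data. CPM are TMM-scaled, and log2 CPM for correlations used a prior count of 2. Depth limits precision for low counts, as in WRKY75 at 0 h.

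The 10 members and the gene lists (MAP kinases, VQ proteins, reported targets, salicylate genes, tissue markers) were chosen with earlier results of these data known. Besides the members, the text names AtDGCR14L, up to 3 called genes of smallest p from each list and comparison, the 2 genes most like each member, and, chosen after their values were seen, ICS1 and the 4 other WRKY genes that fell in all lines. From the VQ list 3 genes were left out because their names did not match the reference table. Sequences are from RefSeq's TAIR10.1.

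Alternatives were RLE scaling, no filter, a filter at 5 CPM, organelle genes left out, DESeq2 1.42.0, a replicate block, only the groups compared, each of 17 libraries left out, and both deviating 24 h libraries left out. Figures used Python 3.11.15 and matplotlib 3.10.9.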

Additional observations from a re-analysis of the deposited data

How the results depend on the processing

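The 8 salt calls kept their direction and passed in each line under all 25 alternatives, except that WRKY75 was not tested under the filter at 5 CPM. The line differences at 24 h were less stable. In the fit of only the groups compared, 0 members were called higher in atdgcr14l-1 than in Col-0 and 0 lower in OE-6 than in atdgcr14l-1, and 1, WRKY18, was called higher in atdgcr14l-1 at 0 h. With both deviating libraries left out, 1 member was called lower in OE-6 than in atdgcr14l-1. WRKY25 was called higher in atdgcr14l-1 than in Col-0 at 24 h with DESeq2 (adjusted p = 0.026). The cause of these changes was not tested, and the fit of only the groups compared at 24 h also kept fewer genes, 20375 and 20384, and scaled the libraries anew. Under the filter at 5 CPM 3 WRKY18 and WRKY40 targets were tested, of which 2, 2 and 3 rose in Col-0, atdgcr14l-1 and OE-6.

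With each of the 17 libraries left out in turn, members called higher in atdgcr14l-1 than in Col-0 at 24 h numbered 2 to 4. Those called lower in OE-6 than in atdgcr14l-1 numbered 1 to 3 and those called higher 0 to 1, and members called lower with salt in atdgcr14l-1 numbered 0 to 1. Values that did not pass could change sign, from -0.70 to 1.46 on the log2 scale for WRKY70 with salt in atdgcr14l-1, from -0.48 to 0.27 for WRKY54 with salt in OE-6, and from -0.0083 to 0.30 for WRKY18 in OE-6 against Col-0 at 24 h. Over all members, comparisons and alternatives 90 of 2985 values changed sign, 0 of them called with all libraries or in the alternative.

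The replicate block changed no call of a member (8 members called higher with salt in each line, 3 higher in atdgcr14l-1 than in Col-0 and 3 lower in OE-6 than in atdgcr14l-1 at 24 h). Libraries of the same number did not deviate together, with a median correlation of 0.00054 and 4 of 40 pairs over 0.1, and 6 of 17 libraries correlated best with their own number, so the numbers were not taken as pairs. For the second Col-0 library at 0 h the label and the name of the deposited table give different numbers, and the label was followed. Depth limits WRKY75 at 0 h, where libraries held 0 to 8 counts.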
